A study of Homo sapiens with 17 samples.

Results

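Peaks of the histone variant H2A.Z (H2AZ in the labels) and of trimethylated lysine 36 of histone H3 (H3K36me3) were compared along genes in cells of the NC1235 arm. The members were the 2 H2AZ and the 2 H3K36me3 chromatin immunoprecipitation libraries that carry the NC1235 label, 4 of the 17 samples in all. The cells were HCC1954, an established line from a HER2-positive breast carcinoma, fixed 72 hours after transfection with antisense oligonucleotides. The series asks how the long non-coding RNA LINC01235 bears on histone marks, with an Si1235 arm beside NC1235. The arm is treated here as the control, although the labels do not spell out its oligonucleotide, and every library used carries that transfection. The 2 replicates of each mark are not said to come from separate cultures, so each p-value reflects library-to-library spread alone, possibly of technical origin. The same line and treatment apply to the 2 H3K27ac and the 1 H3K9ac libraries that are used below for reference.

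H2A.Z replaces the common histone H2A in nucleosomes and is deposited by the SRCAP and EP400 complexes, mainly in the nucleosomes that flank the start sites of active or poised genes and in enhancers. H3K36me3 is written by SETD2, which travels with elongating RNA polymerase II, so the mark covers the bodies of transcribed genes and grows towards their 3′ ends. In plants H2A.Z and DNA methylation of gene bodies are known to exclude each other, and in yeast the histone chaperone FACT is known to keep H2A.Z out of transcribed bodies.

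The deposited lists held 51229 and 46554 H2AZ peaks, covering 45.5 and 37.7 Mb, and 67302 and 71041 H3K36me3 peaks, covering 144.1 and 117.6 Mb. H2AZ peaks were short, with medians of 678 and 611 bp and a widest peak of 6361 bp. The widest H3K36me3 peaks reached 107963 and 71857 bp. For both marks the second replicate covered fewer bases, and bases covered in both replicates made up 67.2% of those covered in either for H2AZ and 68.8% for H3K36me3. The lists do not state read depth. Solved from the fold and p columns of the weakest peaks, the local background of the 2 H2AZ libraries corresponded to 2.17 and 1.35 reads per position. The H3K36me3 libraries gave 2.33 and 1.65, so the second replicate was the lower one for both marks. Of 10 markers of this type of breast line, 8 had bases in their bodies shared by both H3K36me3 libraries. Cover ran from 0 to 89.4% of the body, with KRT19 and KRT14 at 0 and KRT8 at 9.48%. Such bases were present in 0 of 3 leukocyte, 0 of 3 fibroblast, 1 of 3 endothelial and 0 of 3 other-tissue markers. Over all 17394 bodies of genes of at least 4 kb, 8709 had no such base.

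H2AZ lay at gene starts and outside genes, and H3K36me3 lay in gene bodies. Each protein-coding gene was cut into a start window, a far-end window and the body between them. The start window reached 1 kb to each side of the outermost annotated start, and the far-end window had the same size. The shares in this paragraph used all 19974 protein-coding genes with a unique symbol, whatever their length. Genes with no usable start counted as body, outside the windows of other genes. The tests per gene below used genes of at least 4 kb. The start windows held 33.9 and 37.3% of all bases covered by H2AZ, and 0.248 and 0.225% of those covered by H3K36me3. Bodies held 25.2 and 24.3% of the H2AZ bases but 91.6 and 91.9% of the H3K36me3 bases. Both libraries of a mark fell close together, and the marks did not overlap in any of the places. The far-end windows took 0.918% ± 0.00722 (SD, n = 2) of the H2AZ bases and 5.29% ± 0.0779 (SD, n = 2) of the H3K36me3 bases. Outside these genes lay 38.7% ± 1.79 (SD, n = 2) of the H2AZ bases and 2.74% ± 0.268 (SD, n = 2) of the H3K36me3 bases. In each place the two-sided exact permutation test gave p = 0.33, the smallest that 2 libraries against 2 allow.

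**Figure D1:**
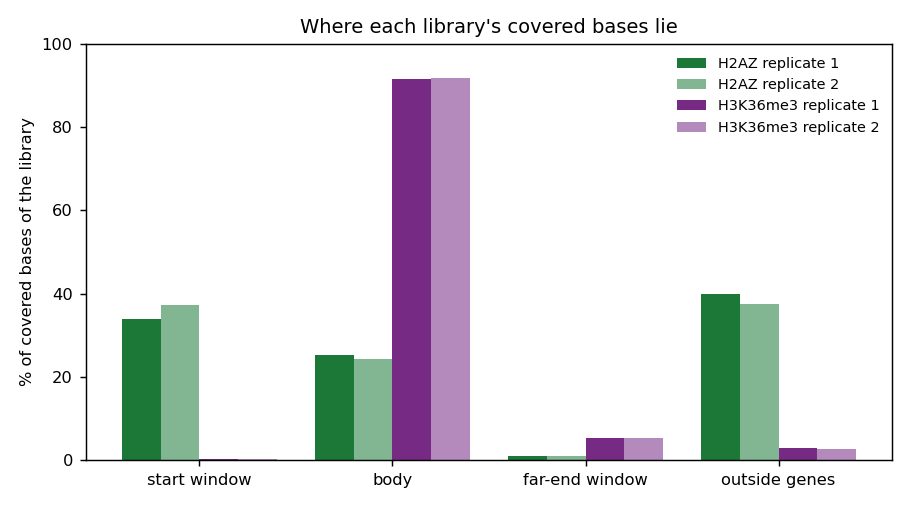
Percent of the covered bases of each of the 4 libraries (vertical axis) in start windows, bodies, far-end windows and outside genes. Protein-coding genes of any length entered. Green bars are H2AZ, purple bars H3K36me3, and paler bars the second replicate. H3K36me3 has over 91% of its bases in bodies in both replicates, and H2AZ splits between starts, bodies and the space outside genes.

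At gene starts H2AZ was the mark present. The start window of the 15777 genes with a usable start was covered by H2AZ to 52.1 and 47.8% on average, and by H3K36me3 to 0.841 and 0.619%. H2AZ touched 72.5 and 71.2% of the start windows and H3K36me3 2.31 and 1.84%. For each gene the difference in percent cover was tested with limma, a linear model that shares the spread between genes, with Benjamini-Hochberg adjustment and a threshold of 0.05, over the 11430 start windows with a mean cover of at least 5%. H2AZ cover was higher at 10921 genes (95.5% of those tested) and H3K36me3 cover at 123 (1.08%). A window can pass the minimum on the cover of 1 mark alone, which largely sets the direction of its call. These shares therefore tell which mark covered more of a window, not whether the marks met. They are no measure of effect beyond the cover values.

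The largest differences were complete. The start windows of DLG2, NAALADL2, GPHN, LRBA, ULK4, MAGI1, GLIS3 and GMDS were covered by H2AZ to 100% in both libraries and by H3K36me3 to 0% in both. These are among the longest genes of the genome, chosen by length among the ties; GPHN encodes gephyrin, the scaffold of inhibitory synapses, GMDS an enzyme of GDP-fucose synthesis, and MAGI1 a scaffold at epithelial junctions. The DLG2 start lies at the high-coordinate end of chr11:83455012-85628373 and that of GPHN at the low end of chr14:66508147-67735355 (GRCh38). Because the libraries of a mark were identical at such windows, their adjusted p (1.75e-08, limma) rests on the spread of other genes.

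Among the 123 starts with more H3K36me3 than H2AZ, 59 (48.0%) lay inside another protein-coding gene, against 11.6% of all starts tested. At SYNDIG1L, ZC2HC1B, OFD1, LRRC75A, ORC1, FERMT3, FKBP11 and BEST1 the window was covered to 100% by both H3K36me3 libraries and to 0% by both H2AZ libraries. The outermost start of ORC1, which encodes the largest subunit of the origin recognition complex, lies inside PRPF38A, a splicing factor gene whose body is covered by H3K36me3. The RefSeq promoter table lists an ORC1 start 5080 bp further into the gene, and there H2AZ covered 89.7% and H3K36me3 0%. OFD1, a centriole and ciliary basal body gene, starts within TRAPPC2 by its outermost annotation. At its listed start, 20243 bp away, H2AZ covered 80.9% and H3K36me3 0%, so the direction turned at both genes (adjusted p = 0.000405 and 0.00455, limma, start from the promoter table). In all, 34 of the 123 genes (27.6%, against 5.10% of all tested) had a listed start more than 1000 bp from the outermost one. At 17 of those 34 mean H2AZ cover exceeded that of H3K36me3 at the listed start. Of the rest, FKBP11, LTB4R, NOXRED1 and QRICH2 kept more H3K36me3 there, and the other windows did not reach the minimum cover. The outermost start of SYNDIG1L lies inside NPC2, and at its listed start, 53933 bp away, the window did not reach the minimum cover. BEST1, whose start lies inside FTH1, and LRRC75A had starts set by H3K27ac alone. The FKBP11 difference no longer passed at its listed start (-24.1 points, adjusted p = 0.327), whereas ZC2HC1B, whose listed start is the outermost one, stayed at -100 points.

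Along genes the marks changed places within a few kilobases of the start. Over 10919 genes of at least 12 kb, H2AZ was most frequent in the 100 bp bin centred 150 bp after the start, where it covered 67.3 and 64.8% of bases. At 2050 bp it had fallen to 4.61 and 3.81%, and at 5050 bp to 1.62 and 1.37%. H3K36me3 was at 0.513 and 0.409% at 50 bp, at 5.53 and 4.07% at 2050 bp, and at 19.05 and 15.9% at 5050 bp. In both replicates H3K36me3 was thus above H2AZ by 2050 bp. On the scale of whole genes H3K36me3 went on rising to 29.6 and 24.9% at 93.75% of the gene length. In the far-end frame its highest value, 31.2 and 26.4%, lay 2750 bp before the annotated end, and it was down to 12.7 and 10.1% at 2050 bp past it. The highest H2AZ values in that frame were 3.69 and 3.12%, both past the end.

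**Figure D2:**
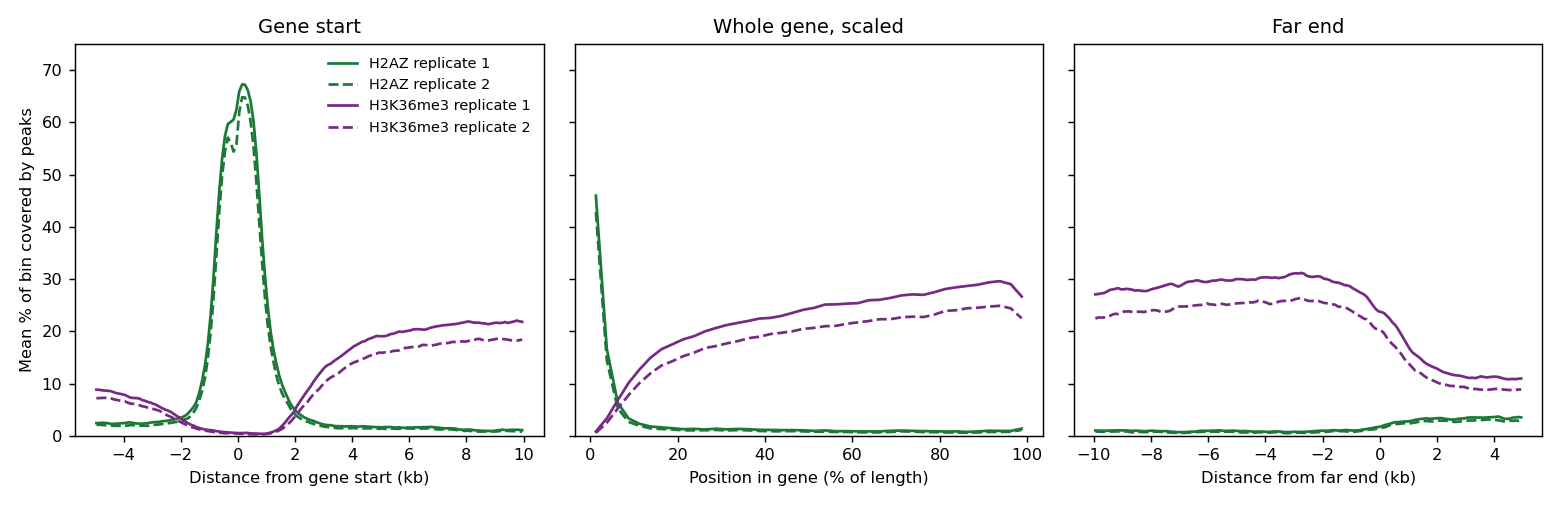
Mean percent of a bin covered by peaks (vertical axis) against distance from the gene start in kb (left), position in the gene in percent of its length (middle) and distance from the far end in kb (right), over 10919 genes of at least 12 kb; green is H2AZ, purple H3K36me3, solid lines replicate 1 and dashed lines replicate 2. H2AZ peaks at the start at 67.3 and 64.8%, and H3K36me3 rises through the body to the last part of the gene.

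At far ends the order was the reverse of that at starts. H3K36me3 covered 25.4 and 21.2% of the far-end window on average, and H2AZ 2.34 and 1.98%. Of 6358 far ends tested with limma, H3K36me3 was higher at 4306 (67.7%) and H2AZ at 654 (10.3%). GSE1, BCAR3, SRPK2, USP34, OSBPL9, TANC1, SLC25A26 and KIAA1671 led the first group, each at 100% in both H3K36me3 libraries and 0% in both H2AZ libraries. SRPK2 encodes a kinase of splicing factors, USP34 a ubiquitin protease and SLC25A26 the mitochondrial carrier of S-adenosylmethionine. Leaving out either H2AZ library took the H3K36me3 count to 2164 and 2158.

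Part of the far ends with more H2AZ lay at starts of other genes. Of the 654, 229 (35.0%) had the start of another gene within 1 kb, against 2.53% of the far ends with more H3K36me3 and 6.56% of all tested. Only neighbours with a strand in the promoter table were counted, which leaves out 4162 protein-coding genes, so these shares can be too low. SDK2, LOC105373989, TRIM31 and PRICKLE4 were at 100% in both H2AZ libraries and at 0% in both H3K36me3 libraries, and CA11 (100 and 98.0%), ANKAR (100 and 96.0%), ICAM3 (95.6 and 100%) and IL17RC (99.0 and 93.0%) followed, also against 0%. TRIM31 is a ubiquitin ligase of the major histocompatibility region, ICAM3 a leukocyte adhesion molecule and IL17RC a receptor of interleukin 17. Each of these 8 calls was lost when either H3K36me3 library was left out (adjusted p from 0.397 to 0.868, limma), and kept when either H2AZ library was left out.

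Gene bodies carried H3K36me3 and little H2AZ. Mean body cover over 17394 genes was 22.2 and 18.7% for H3K36me3, and 1.77 and 1.43% for H2AZ. Some H2AZ peak was nevertheless present in 48.8 and 44.4% of bodies, nearly as many as had an H3K36me3 peak (54.5 and 52.0%). The H2AZ peaks took up little of the body length, and 0.0977 and 0.0632% of bodies were covered by H2AZ to 50% or more, against 21.5 and 17.2% for H3K36me3. Of 7589 bodies tested with limma, H3K36me3 cover was higher in 6684 (88.1%) and H2AZ cover in 423 (5.57%).

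The largest H3K36me3 excess was complete cover of the body. KHDC4, RPS19, RPL37, EEF2, REC8, RPS9, LOC124903813 and HNRNPA1 were each covered to 100% by both H3K36me3 libraries and to 0% by both H2AZ libraries. RPS19, RPL37 and RPS9 encode ribosomal proteins, EEF2 the elongation factor that moves the ribosome, HNRNPA1 an RNA-binding protein of splicing, and REC8 a meiotic cohesin subunit. In 8 bodies of the opposite kind, H2AZ reached its largest excess. HES7, a transcriptional repressor of the segmentation clock, was covered by H2AZ to 74.6 and 68.5%, SPHK1, the sphingosine kinase, to 66.2 and 64.2%, and EFNA3, an ephrin ligand, to 67.4 and 59.8%, all with no H3K36me3. LYPD3 (59.5 and 60.7%), ZNF575 (61.8 and 52.8%), BMP4 (55.3 and 54.2%) and GJD3 (55.8 and 47.4%) likewise had no H3K36me3. TPBG, the oncofetal antigen 5T4, held both marks in its 2438 bp body, with H2AZ at 64.8 and 65.9% and H3K36me3 at 13.5 and 11.3%.

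The 423 bodies with more H2AZ were short, with a median gene length of 9353 bp against 25986 bp for all bodies tested. By their choice most (391, or 92.4%) had no base shared by both H3K36me3 libraries. Bases shared by both H3K27ac libraries were present in 68.1% of them, and 53.4 and 54.0% of all bodies held a peak of the first and the second H3K27ac library. The count of 423 rests on the minimum cover and the gene set, being 2963 with no minimum and 967 with lncRNA genes added. It was 195 and 255 without H2AZ replicate 1 and 2, and the calls of ZNF575 and GJD3 did not pass without either H3K36me3 library (adjusted p from 0.0560 to 0.0598, limma).

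Inside the bodies the marks almost never shared a base. For each body, the overlap that would come from placing both marks uniformly and independently along it was computed from the covers and summed. For the pair of first replicates the observed overlap was 17.3 kb, against 1246 kb under uniform placement. The other pairs gave 11.6 kb against 1014 kb, 12.8 kb against 1018 kb and 9.12 kb against 829 kb. The observed overlap was thus 1.39, 1.14, 1.26 and 1.10% of that under uniform placement, with a mean of 1.22% ± 0.129 (SD over 4 pairs, which share libraries). Both acetylation marks also overlapped H3K36me3 less than uniform placement would give, but by far less. H3K27ac reached 25.7% ± 0.0835 (SD, n = 2 libraries, each averaged over both H3K36me3 libraries) and the single H3K9ac library 32.8%, against 1.22% ± 0.0618 (SD, n = 2) for H2AZ counted the same way. The H3K27ac share was 21.0 times that of H2AZ and the libraries did not overlap, although 2 against 2 cannot go below p = 0.33 in the exact two-sided permutation test, which was the value obtained. In the Si1235 arm the same H2AZ measure averaged 1.69% (1.304 to 2.05% over its 4 pairs).

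Uniform placement ignores that H2AZ sits at the beginning of bodies, where H3K36me3 is low. With 5 kb removed from each end of a gene in place of 1 kb, the observed overlap was 1.58% of uniform. This was computed for H2AZ alone, so the contrast with H3K27ac was not tested away from gene ends. H3K27ac peaks were also wider than H2AZ peaks, with medians of 1098 and 956 bp. Over the whole genome, 63 to 99 of the H2AZ peaks of a library touched an H3K36me3 peak, depending on the pair, and the shared bases were 0.0381 to 0.0612% of the H2AZ bases. For H3K27ac the shared bases were 2.31 to 2.96% and for H3K9ac 4.14 to 5.03%.

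**Figure D3:**
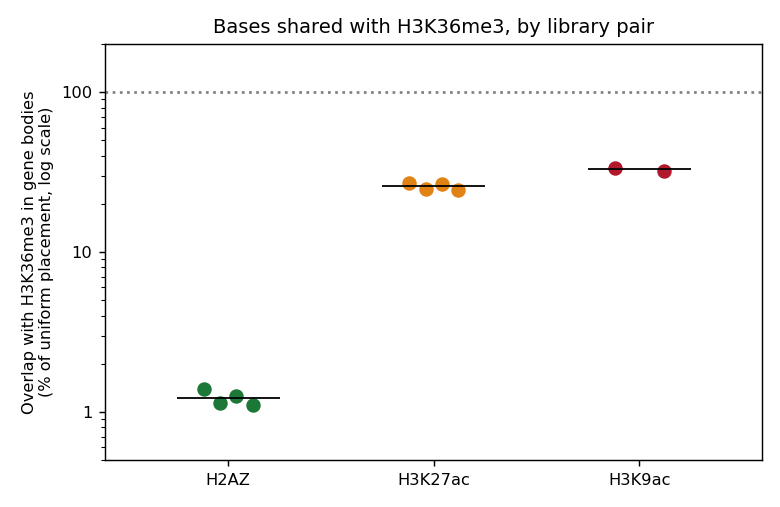
Bases shared with H3K36me3 in gene bodies, as a percent of the bases that uniform and independent placement of both marks would share (log scale), for H2AZ, H3K27ac and H3K9ac; each point is 1 pair of libraries, black lines are means over pairs, and the dotted line is 100%. The 4 H2AZ pairs lie between 1.10 and 1.39%, below all H3K27ac pairs (24.5 to 26.8%) and H3K9ac pairs (32.1 and 33.6%).

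Most genes with an H3K36me3-covered body also had H2AZ at the start. These counts are a description without a test. A start was counted as carrying H2AZ where both libraries covered at least 50% of it, and a body as covered where both H3K36me3 libraries shared at least 50%. Of 15777 genes, 2198 had both, 6556 had the H2AZ start alone, 555 the covered body alone and 6468 neither. Of the covered bodies 79.8% had an H2AZ start, against 55.5% of all 15777 genes. Of the genes with an H2AZ start 25.1% had a covered body, against 15.9% of all 17394 bodies, those without a usable start included. Where the start window held no base shared by both H2AZ libraries, mean body cover by H3K36me3 was 2.95% (4606 genes). It was 14.6% at starts covered up to 25%, 22.97% at 25 to 50%, 29.3% at 50 to 75% and 25.1% above 75%, so body cover did not go on rising with start cover. Genes of the last class were longer, with a median of 47237 bp against 29979 bp in the class before it.

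Gene length entered this relation. Among genes of 4 to 20 kb, 39.5% of those with an H2AZ start had a covered body, against 10.6% of those without one. Among genes of 20 to 100 kb the shares were 25.7 and 7.80%, and among genes of 100 kb and longer 2.90 and 1.37%. In each length class the share was higher with an H2AZ start. The 555 genes with a covered body and no H2AZ start by this definition mostly had some H2AZ, with a median start cover of 34.6%, and a median start cover by H3K27ac of 76.9%.

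In the genes with both, the H2AZ at the start mostly ended before H3K36me3 began. In 2 of the 2198 genes, CCND1 and BRD9, an H3K36me3 segment began before the H2AZ edge. Over the 2198 genes that edge lay a median of 726 bp into the gene, and over 2197 the first H3K36me3 segment to begin past it lay at 2750 bp, with no such segment in CCND1. The distance between them, which is above 0 by its definition and can hold further H2AZ as in MYC, had a median of 1959 bp, with quartiles at 1259 and 3202 bp, and it was under 200 bp in 5 genes and 5000 bp or more in 256 (11.6%). CCNB1, the mitotic cyclin B1, was one of the closest pairs, with H2AZ up to 954 bp and H3K36me3 from 1097 bp. The distance was 241 bp in AURKA, the mitotic kinase, 505 bp in RPS6 and 950 bp in MCM3. ERBB2, the receptor amplified in this line, had one of the wider gaps, with H2AZ to 813 bp and H3K36me3 from 6902 bp. Both count from its outermost annotated start, and inner starts were not considered.

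The promoters of the class with neither mark had the lowest median number of CG dinucleotides, a description without a test. Listed starts and their strand came from RefSeq on GRCh38.p14, which matched 13914 of the genes, and the 250 bases before the listed start were read. The H2AZ class was set at the outermost start, which was the listed one at 85.7% of these genes. At the others the bases come from another place than the window that set the class. 1 promoter of each class is printed 5′ to 3′ on the strand of the gene, with CG dinucleotides in capitals, chosen from the gene lists after their values were seen to show the contrast in CG content. CCNB1 had both marks (start H2AZ 93.1 and 94.0%, body H3K36me3 98.9 and 99.5%), and WT1, a transcription factor of kidney and gonad development, had H2AZ alone (100 and 100%, with no H3K36me3). ELF3, an epithelial transcription factor, had the body mark alone (H3K36me3 100 and 99.98%, start H2AZ 0 and 0%), and ALB, the serum albumin gene of liver, had neither.
CCNB1, chr5:69166900-69167149, plus strand: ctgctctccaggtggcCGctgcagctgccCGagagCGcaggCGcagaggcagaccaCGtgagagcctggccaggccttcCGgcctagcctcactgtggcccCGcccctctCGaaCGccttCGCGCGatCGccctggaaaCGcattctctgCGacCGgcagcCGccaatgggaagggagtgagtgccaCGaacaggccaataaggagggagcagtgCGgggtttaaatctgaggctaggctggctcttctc
WT1, chr11:32435540-32435789, minus strand: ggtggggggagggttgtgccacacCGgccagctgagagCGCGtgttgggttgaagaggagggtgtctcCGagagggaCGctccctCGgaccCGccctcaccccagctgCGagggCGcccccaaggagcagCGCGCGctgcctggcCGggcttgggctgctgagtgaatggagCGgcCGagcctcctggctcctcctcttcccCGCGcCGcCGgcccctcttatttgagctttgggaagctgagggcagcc
ELF3, chr1:202010337-202010586, plus strand: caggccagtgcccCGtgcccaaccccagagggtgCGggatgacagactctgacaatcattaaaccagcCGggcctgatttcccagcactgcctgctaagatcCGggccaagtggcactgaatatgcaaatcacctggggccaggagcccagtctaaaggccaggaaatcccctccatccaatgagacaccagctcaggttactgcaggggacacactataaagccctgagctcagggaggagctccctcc
ALB, chr4:73404037-73404286, plus strand: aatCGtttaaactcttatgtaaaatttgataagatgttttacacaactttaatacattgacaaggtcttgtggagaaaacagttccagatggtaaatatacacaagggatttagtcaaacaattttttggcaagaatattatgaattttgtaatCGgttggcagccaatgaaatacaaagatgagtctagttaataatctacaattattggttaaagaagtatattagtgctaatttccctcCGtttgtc
The CCNB1 and WT1 promoters each hold 19 CG dinucleotides, ELF3 holds 4 and ALB 3. Over all 13914 promoters the median was 18. It was 8 in the class with neither mark (6062 promoters), 22 with H2AZ alone (5525), 22 with both (1869) and 20 with the covered body alone (458). ELF3, with 4, was not typical of that last class, whose quartiles were 13 and 27. The letters TATAAA, searched on the gene's strand from 50 to 11 bases before the start, stood in 2.79% of all promoters and in the ELF3 promoter. They stood in 0.688% of the promoters with H2AZ alone, 1.23% of those with both, 3.93% of those with the covered body alone and 5.10% of those with neither. Searched on both strands, where the complement reads TTTATA, the shares were 0.923, 1.498, 4.80 and 6.05%, with 3.36% over all. These values describe the letters only and were not tested.

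H2AZ inside H3K36me3 was rare enough to name. Among 2773 covered bodies, 5 genes held a segment of at least 150 bp, about the length of DNA in a nucleosome, that was covered by all 4 libraries. They were TRIP13, NDC80, MYC, CCND1 and FBXO32, and none of the segments lay within 1 kb of another gene's start. The segment in TRIP13, an AAA ATPase of the spindle checkpoint, was the longest, with 618 bp at chr5:912218-912835, 19334 bp into the gene. H2AZ peaks of 660 and 638 bp there lay wholly within H3K36me3 peaks of 19574 and 19671 bp. In the authors' lists the H2AZ peaks had a fold over background of 4.66 and 3.32, and the H3K36me3 peaks 14.0 and 8.55. No H3K27ac peak touched this segment, and H3K9ac covered 27.7% of it at a fold of 1.74 and 1.78.

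In the other 4 genes the marks met within acetylated stretches. NDC80, a kinetochore protein, held 2 segments, of 295 bp (chr18:2589149-2589443) and 342 bp (chr18:2606215-2606556). At the first, the H3K36me3 peak of replicate 2, 334 bp wide, lay wholly inside the H2AZ peak of 498 bp. In MYC the segment of 344 bp (chr8:127738639-127738982) lay where H2AZ peaks of 2084 and 593 bp ended inside H3K36me3 peaks of 4378 and 949 bp. In CCND1, the cyclin D1 gene, the segment of 234 bp (chr11:69643170-69643403) lay where the H2AZ peaks from the start, 5526 and 5460 bp wide, ran into H3K36me3 peaks of 11242 and 11055 bp. FBXO32, a ubiquitin ligase subunit, held 161 bp in 1 segment (chr8:123528053-123528213). All of these segments were touched by H3K27ac in both libraries and by H3K9ac, with H3K27ac folds from 18.5 (NDC80) to 60.9 (CCND1). As a share of the body, the bases under all 4 libraries came to 6.23% in MYC, 2.53% in TRIP13, 2.07% in CCND1, 1.48% in NDC80 and 0.714% in FBXO32.

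With a minimum of 1 bp the count rose to 12 genes, which added CENPF (31 bp), BRD9 (113 bp), SCNN1A (66 bp), BCL3 (92 bp), HM13 (124 bp), TFAP2C (146 bp) and APEX2 (90 bp). Without a given library the count was 10 to 13, and 36 genes had such a segment where either library of a mark was accepted.

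Far more covered bodies held H2AZ in gaps of their H3K36me3. Counting every segment covered by both H2AZ libraries, 614 lay in 511 of the 2773 covered bodies (18.4%), and 467 of these segments within 5 kb of the start. By a looser count, a peak of the first and second H2AZ library touched 48.8 and 44.4% of all 17394 bodies. At 5 kb or more from the start were 131 sites in 99 genes. Of these 131, 33 lay near the start of another gene, 35 near a listed inner start of their own gene, 14 in genes with no listed start, and 49, in 43 genes, away from any listed start. H3K36me3 stood back from the sites: 10 of the 131 touched a base of it, and the nearest H3K36me3 lay a median of 1792 bp away. H3K27ac was present at 95.4% and H3K9ac at 97.7% of the sites, and 1 site carried no acetylation. The shares at H2AZ sites in other bodies are not given here.

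Around the centres of these 131 sites H3K36me3 cover fell to 4.66 and 4.38%. It was 20.4 and 15.7% at 1050 bp, 32.8 and 26.6% at 2050 bp and 52.9 and 50.8% at 4950 bp, averaged over both sides. H3K27ac covered 95.3 and 94.7% at the centre and 16.9 and 16.5% at 4950 bp. The H2AZ sites were chosen by H2AZ and by the body's total H3K36me3 cover, not by local H3K36me3. The median fold of H2AZ peaks in covered bodies (7.39 and 7.40) was close to that in other bodies (6.45 and 6.64) and below that at gene starts (19.8 and 16.0).

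**Figure D4:**
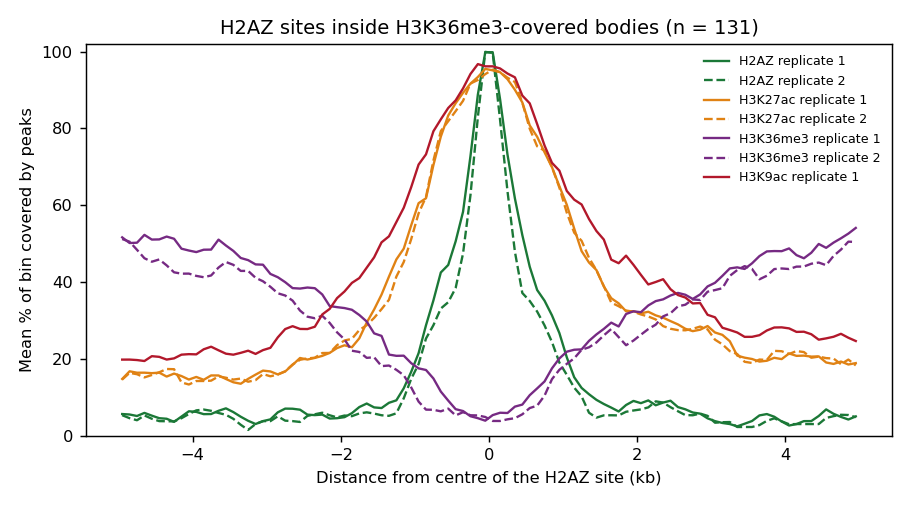
Mean percent of a 100 bp bin covered by peaks (vertical axis) against distance in kb from the centre of the 131 H2AZ sites that lie at least 5 kb from the start inside H3K36me3-covered bodies, for H2AZ (green), H3K36me3 (purple), H3K27ac (orange) and H3K9ac (red); solid lines are replicate 1, dashed lines replicate 2. H3K36me3 drops from over 50% at 4950 bp to under 5% at the centre, where the acetylation marks are highest.

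ERBB2 shows such a gap. Its body was covered by H3K36me3 to 56.8 and 55.9%, and an H2AZ site of 1744 bp lay at chr17:39699162-39700905, 11068 bp into the gene. The nearest H3K36me3 was 3790 bp to one side and 3102 bp to the other, and a smaller site of 252 bp lay at 17920 bp. IPO5, an importin, held a site of 1804 bp 21858 bp into the gene, and DHX30, an RNA helicase, one of 992 bp at 21439 bp, both with no H3K36me3 base within them. These 3 genes were chosen for the size of their sites after the values were seen. Distances into the gene count from the outermost annotated start. Whether a site lies at an inner start of its own gene, ERBB2 included, is not given here.

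Counted over all their bases, the most covered bodies held the least H2AZ. In the parts of genes more than 5 kb from both ends, H2AZ covered 0.496% of bases in bodies with no H3K36me3 and 0.604% in bodies covered up to 25%. The value was 0.452% at 25 to 50%, 0.329% at 50 to 75% and 0.0497% at 75% and more. Counted over the bases free of H3K36me3 alone, the values were 0.496, 0.641, 0.720, 0.953 and 0.531%. The H2AZ values of the class at 75% and more rest on 8.98 kb of H2AZ. In the same regions H3K27ac covered 0.911, 2.99, 3.88, 3.33 and 1.63% of all bases, in the same order of classes. It was thus also lower in the most covered bodies than in the class before them.

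The gene lists showed the pattern by function, against 95.5% of tested starts with more H2AZ and 88.1% of tested bodies with more H3K36me3 over all genes. Most lists sat near these backgrounds, and no list was tested against other genes. Over all genes the median start was covered by both H2AZ libraries to 56.3% and the median body by both H3K36me3 libraries to 0%. Among 19 DNA replication licensing genes, 18 starts had more H2AZ, with ORC1 the exception described above, and all 19 bodies had more H3K36me3. The medians were 77.7 and 48.2%. MCM4, a subunit of the replicative helicase, had 88.1 and 80.2% H2AZ at the start and 99.3 and 97.4% H3K36me3 over the body. CDC6, which loads that helicase, had 52.7 and 52.3% and 90.7 and 90.03%.

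Genes of the H2A.Z machinery behaved alike, with more H2AZ at 17 of 17 starts and more H3K36me3 over 17 of 17 bodies. The start of SRCAP, the ATPase that exchanges H2A for H2A.Z, was covered by H2AZ to 79.4 and 45.3%, and its body by H3K36me3 to 96.1 and 96.3%. KAT5, the acetyltransferase of the same family of complexes, had 75.6 and 73.6% and 95.9 and 94.6%. ANP32E, an H2A.Z chaperone, had no usable start and no H3K36me3 over its body, with H2AZ there at 9.37 and 10.1%. The H3K36 writers, erasers and readers had more H2AZ at 17 of 17 tested starts. NSD1, KDM4C, PHF19, ZMYND11 and KDM2B had 0% at the outermost start in both libraries and were not tested. Their bodies held H2AZ, from 1.02% in KDM4C to 8.98% in PHF19, and cover at any inner start is not given here. These values therefore do not tell whether the genes lack H2AZ at the start in use. The genes of this list had more H3K36me3 over 15 of 16 tested bodies, with a median body cover of 27.1% over the 22 genes.

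Cyclins, kinases and mitotic genes had some of the highest values of both marks. More H2AZ was called at 24 of 24 starts and more H3K36me3 over 20 of 21 tested bodies, and the medians were 84.2 and 72.8%. AURKA was covered to 100% at the start in both H2AZ libraries and to 98.4 and 98.2% over the body by H3K36me3, and TOP2A, the DNA topoisomerase, to 95.6 and 80.5% and 99.2 and 95.7%. RB1 and CDK6 had H2AZ starts (92.3 and 89.1%, and 64.7 and 48.4%) with body H3K36me3 below 2%. Receptor and PI3K-RAS signalling genes had a median start above and a median body slightly above those of all genes, without a test of the difference. More H2AZ was called at 22 of 23 starts and more H3K36me3 over 14 of 14 tested bodies, with medians of 78.9 and 10.5%. PIK3CA, the catalytic subunit of the kinase, was at 100% at the start in both libraries with 7.05 and 7.16% H3K36me3 over the body. ERBB3 differed from it, with 83.6 and 78.6% over the body.

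Ribosomal protein genes had high median cover over bodies. All 17 starts had more H2AZ and all 17 bodies more H3K36me3, and the medians were 49.7% for the start, below the median of all genes, and 94.3% for the body. RPS18, RPL23, RPS6 and RPL37A had bodies at 100% in both H3K36me3 libraries and H2AZ in none of either library, while their starts held H2AZ at 50.3 to 67.7%. H3K36me3 reached into those start windows, at 3.35 to 12.2%. At RPL13 it covered 25.7 and 21.1% of the start window beside 60.2 and 56.8% H2AZ.

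Breast epithelial markers varied. Of the 16 with a usable start, 6 had a covered body without an H2AZ start, 3 had both, 2 the H2AZ start alone and 5 neither. Of 10 tested starts 8 had more H2AZ and 1, KRT8, more H3K36me3 (39.9% against 9.10%). The outermost KRT8 start lies inside KRT18, whose body is covered, and at the listed start, 23391 bp away, the window did not reach the minimum cover. All 13 tested bodies had more H3K36me3, and 4 of 17 bodies had no base shared by both libraries. The median start cover by H2AZ was 9.28% and the median body cover by H3K36me3 60.5%. KRT5 and KRT17, keratins of basal and stressed epithelium, and KRT7, a keratin of simple epithelium, had 0% H2AZ at the start in both libraries, with H3K36me3 over the body at 93.1 and 80.1%, 76.5 and 68.2%, and 86.9 and 74.0%. KRT18 had 18.1 and 15.9% H2AZ and 90.4 and 89.4% H3K36me3. EPCAM, ESRP1 and TFAP2C did not share this, with both H2AZ libraries above 80% at the start.

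Genes with a covered body and no H2AZ at all in the start window were few. Of 2141 covered bodies whose listed start is the outermost one, 33 (1.54%) had no H2AZ peak there in either library, and 7 of these had H3K27ac over at least 50% of the window. The 7 were ELF3, CHD2, KRT5, SBNO2, LCN2, ZMYND8 and EDN2, of which CHD2, a chromatin remodeller, had no H2AZ within 5 kb of the gene in either library. At ELF3 the start window was covered to 100% by both H3K27ac libraries and by H3K9ac. LCN2 encodes the secreted iron-binding protein lipocalin 2 and EDN2 the peptide endothelin 2.

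In the remaining lists some bodies held H2AZ in place of H3K36me3. Of 12 HER2 amplicon genes of at least 4 kb, 10 of 10 tested starts had more H2AZ, 6 bodies more H3K36me3, and 2 bodies, NEUROD2 (30.9 and 28.1% H2AZ) and PPP1R1B (23.8 and 23.05%), more H2AZ with no H3K36me3. GRB7, an adaptor of receptor kinases, held both over its body, with H2AZ at 25.2 and 25.1% and H3K36me3 at 69.5 and 68.4%. Zinc finger genes of chromosome 19 had more H2AZ at 16 of 19 tested starts and more H3K36me3 over 8 of 10 tested bodies, and a median body cover of 0.124%. Developmental transcription factors had a median start cover by H2AZ of 31.2%. Of 13 usable starts 6 had no base shared by both H2AZ libraries, and all 7 tested starts, which passed the minimum on H2AZ, had more H2AZ. Among their bodies, EN1 (17.4 and 16.9%) and LHX9 (15.0 and 14.4%) had more H2AZ and no H3K36me3, and GATA6 had more H3K36me3.

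Few genes of the lists for other cell types passed the minimum cover over bodies. Of 14 leukocyte and endothelial markers 1 body was tested, PECAM1 (22.2 and 13.9%), and had more H3K36me3. Of 8 usable starts 4 had no base shared by both H2AZ libraries, and the 4 tested had more H2AZ, among them CD8A (81.9 and 78.2%) and KDR (60.3 and 60.7%). Mesenchymal genes had more H2AZ at 5 of 7 tested starts and more H3K36me3 over 3 of 5 tested bodies, led by FN1, fibronectin, at 97.1 and 94.9%. VIM, the intermediate filament vimentin, was the reverse, with H2AZ over its body at 28.8 and 20.2% and no H3K36me3. Of 14 genes of other tissues, 1 start and 1 body passed the minimum, neither was called in either direction, and 13 bodies had no base shared by both H3K36me3 libraries.

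**Figure D5:**
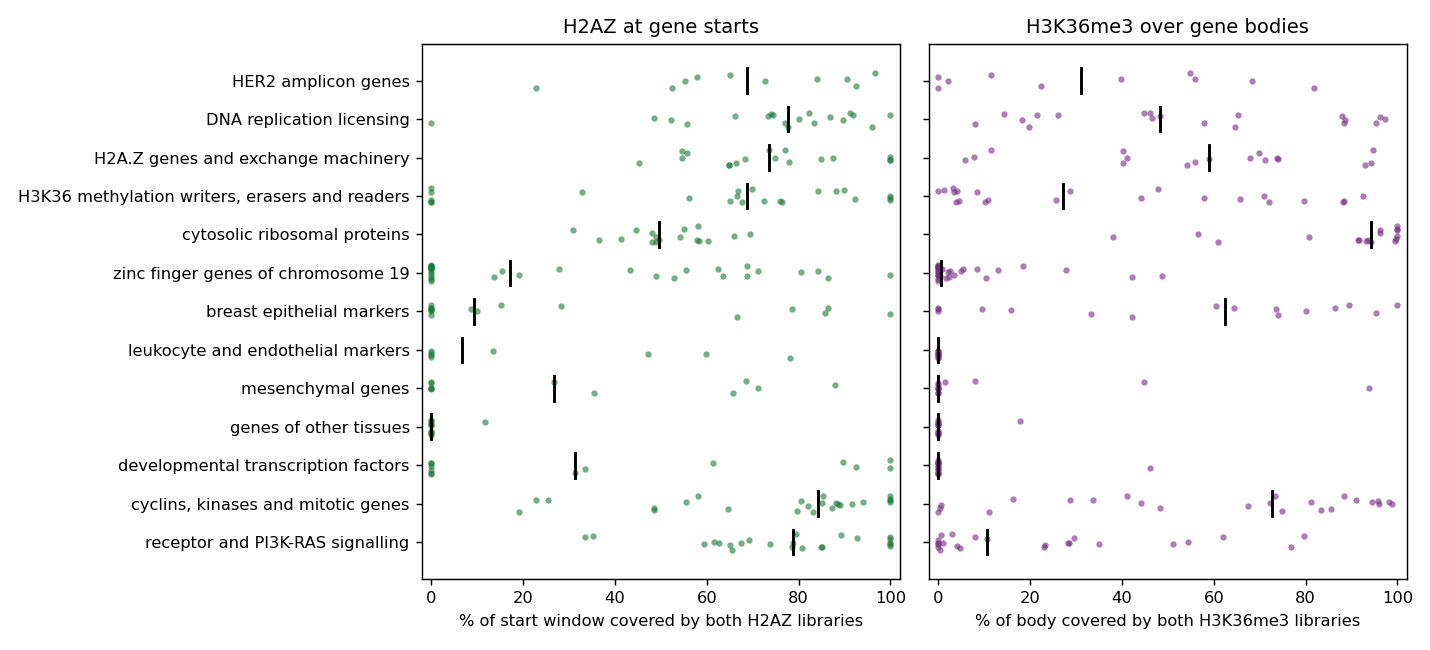
Percent of the start window covered by both H2AZ libraries (left) and percent of the body covered by both H3K36me3 libraries (right) for each gene with a usable start in the 13 lists; points are genes, spread vertically within a list only to be seen, and black lines are medians. Ribosomal protein genes sit at the right edge for H3K36me3 with starts near 50%, and breast epithelial markers spread widely in both panels.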

How the data were processed

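Peaks from chromatin immunoprecipitation of HCC1954 cells were taken from the deposited narrowPeak lists, called with MACS2 on hg38 per the submitters' processing notes, which also name Bowtie2 2.2.9. Per the file headers and values, the lists hold chromosome, start and end, the fold enrichment, a linear ratio that the authors' caller computed, and −log10 p and q values that the authors' caller computed. Peaks were called per library, and narrow calling can split broad H3K36me3 domains. Read depth, the control used and the peak threshold are not given in the sources used here; no listed peak has a −log10 q under 2.00. Only positions entered the comparisons; the fold served for description and q for an alternative.

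Peaks of a library were merged and percent cover computed on chromosomes 1 to 22 and X for protein-coding RefSeq genes (GRCh38.p14) of at least 4 kb: start and far-end windows of 1 kb to each side, and the body between. Strand came from the RefSeq promoter table for 13914 genes. For 1863 genes absent there, the end with more H3K27ac cover was taken as the start, a rule that gave the same end as the table at 93.7% of 8870 genes checked, and 1617 genes had no start. Windows with a mean cover of at least 5% were tested with limma 3.58.1 (R 4.3.3, trend, Benjamini-Hochberg, threshold 0.05), checked on simulated data. A limma p can be tiny where both replicates have the same value, since the spread is then borrowed from other genes. Shares counted bases over protein-coding genes of any length and used the exact permutation test. Overlap was set against the product of the covers. Named genes were, per limma comparison, the 8 with the largest difference in each direction, ties to the longer body, the genes with the marks together in a covered body, and members of 13 gene lists. The members, lists and rules were chosen with earlier results of these data known. No exon annotation was used, so segments are not assigned to exons or introns. Alternatives changed the window, the minimum, the gene set, the q threshold, joining of peaks, the replicate block and the libraries, and 3 on strand and start were added after the data were seen.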

Additional observations from a re-analysis of the deposited data

How the results depend on the processing

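Among the values of named genes over all alternatives, 579 kept direction and call, 21 kept direction but lost the call, and 2 turned: with the start from the promoter table, ORC1 went to 89.7 points and OFD1 to 80.9. Starts with more H3K36me3 numbered 323 with lncRNA genes added and 333 with windows of 2.5 kb, against 123. Far ends with more H2AZ numbered 1027 with lncRNA genes, against 654, and those with more H3K36me3 ran from 2158 to 5494 with 1 library left out, against 4306. Bodies with more H2AZ numbered 967 with lncRNA genes, 2963 with no minimum cover, 733 over whole genes and 195 to 313 with 1 library left out, against 423. The overlap was 0.942% of uniform at −log10 q of at least 5, 1.52% with H3K36me3 peaks joined over 1 kb, 0.460% over whole genes, 1.58% without 5 kb at each end, and 1.12 to 1.32% with 1 library left out. Genes with H2AZ inside covered bodies numbered 8 at 25% cover, 3 at 75%, 12 at 1 bp, 1 at 500 bp, 36 with either library, 9 with joined peaks and 10 to 13 with 1 library left out, against 5. With windows of 2.5 kb the H2AZ shares were 42.3% (starts), 1.68% (far ends), 19.8% (bodies) and 36.2% (outside), and the H3K36me3 shares 1.84%, 11.1%, 85.2% and 1.84%. At −log10 q of at least 5, H3K36me3 had 5.42% in far ends and H2AZ 36.9% outside. The causes were not tested.

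The correlation of replicate differences between marks was -0.0287 at starts, -0.0882 at far ends and -0.0768 in bodies. Many of these windows held 1 mark alone, so these values cannot tell whether the replicate numbers pair the libraries. With the number as a replicate block the counts were 10837 and 120 at starts, 500 and 3861 at far ends, and 432 and 6886 in bodies, H2AZ first. With strand from the table alone they were 9246 and 107 of 9682 starts and 539 and 3691 of 5452 far ends. With 1 library left out, the lone library is assumed to vary like the other mark. Depth is known only as background at weak peaks, so a base without a peak is one where none was detectable at this depth.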
